A study of Homo sapiens with 6 samples.

Results

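The cadherins and protocadherins are cell-surface adhesion proteins, and their messenger RNAs were compared between isthmic organizer (IsO)-like cells and control neural cells. The members were all rows of the deposited intensity table named CDH with a number, PCDH with a number, or PCDHA, PCDHB or PCDHG with a cluster number. This gave 92 of 34692 rows, of which 18 were classical cadherins, 6 were other CDH rows and 68 were protocadherins. The classical cadherins were 5 of type I and 13 of type II, and the protocadherins were 13 non-clustered genes, 15 of the alpha cluster, 18 of the beta cluster and 22 of the gamma cluster. By current gene names, PCDH21, PCDH24 and CDH29 are the cadherin-related genes CDHR1, CDHR2 and CDHR4. They were kept under the names of the array's design.

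The data were 6 arrays in 2 groups, 3 arrays of control neural cells and 3 of IsO-like cells, all made from the embryonic stem cell line H9, an established human line. By the protocols in the labels, aggregates of H9 cells received 5 µM dorsomorphin and 10 µM SB431542, blockers of BMP and activin/TGF-beta receptors, for the first 4 days, were plated on day 4 and were grown for 5 more days. To obtain IsO-like cells, the medium also held 100 ng/ml FGF8 together with CHIR99021, which inhibits GSK3 and so turns on Wnt signalling. CHIR99021 is listed only as a range of 0 to 1.2 µM, and the dose of the arrayed cells is not stated in the labels. Both groups thus shared the line, the receptor blockers and the plating. Nothing in the labels says that the 3 samples of a group were separate cultures, so the p-values reflect no more than the spread among these samples, possibly a technical one.

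Classical cadherins hold cells of a kind together by calcium-dependent binding to the same cadherin on the next cell. Their tails bind p120-catenin and beta-catenin, and beta-catenin is part of their link to actin. E-cadherin (CDH1) gives way to N-cadherin (CDH2) when ectoderm becomes neural plate, and differing sets of type I and type II cadherins mark regions and boundaries of the early neural tube. Protocadherins lack the beta-catenin binding tail. Non-clustered protocadherins are expressed in regional patterns, and the alpha, beta and gamma genes, which lie side by side in a cluster, give single neurons distinct surface identities through the choice of promoters, a process that involves the insulator protein CTCF.

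The median intensity was between 144 and 157 on every array, and 13999 to 15232 rows had a detection p-value below 0.05. A row was tested where that held on at least 3 of the 6 arrays, which left 14548 rows. Of 9 isthmic organizer markers 6 were tested and 5 were higher in IsO (6 with the array number as a block, which adds FGF8). Of the 5, WNT1 and FGF17 were above background on all 6 arrays and were higher by 3.65 and 5.20 on the log2 scale (limma, adjusted p = 0.004 and 0.0006). EN1, EN2 and PAX8 were above background on no control array, so they were tested through the IsO group alone, and EN1 was higher by at least 23.3-fold. Values below are log2 normalised intensities unless called deposited intensities, and an adjusted p is from limma over all 14548 rows. Arrays that carry the same number in the labels deviated together, so the fit with that number as a block is given beside the calls it changed.

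Most of the family was at background in both groups. Of the 92 members 20 were detected on enough arrays for a test, against 14548 of all 34692 rows. In all, 56 of the 92 members were above background on no array and 19 on all 6, where a row that combines several probes counted as above background also by its signal. The 6 classical cadherins above background on no array were all of type II: CDH5, the VE-cadherin of endothelium, and CDH7, CDH8, CDH12, CDH19 and CDH22. All 5 type I genes were above background on at least 1 array. CDH13, CDH16, CDH17, CDH26 and CDH29 were above background on none. Among the protocadherins, 45 of 68 were above background on no array, and 41 of these were clustered genes. Above background on all 6 arrays were CDH2, CDH3, CDH4, CDH6, CDH11, CDH23, CDH24, PCDH7, PCDH17, PCDH18, PCDH19, PCDHA3, PCDHB2, PCDHB5, PCDHB9, PCDHB10, PCDHB15, PCDHB17 and PCDHGB6.

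**Figure D1:**
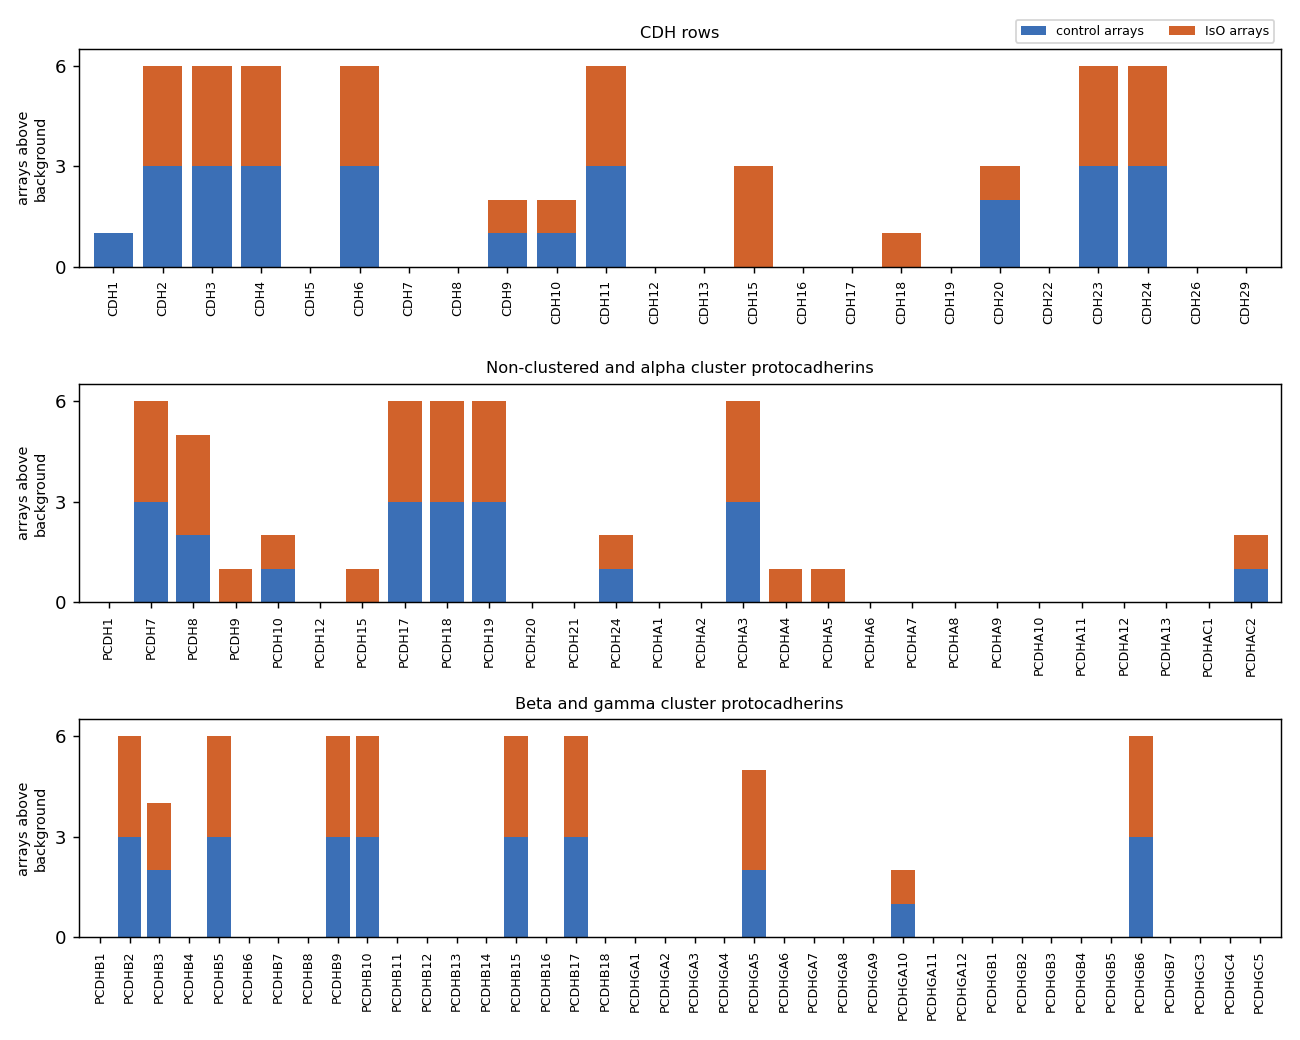
Number of arrays, out of 3 control (blue) and 3 IsO (orange), on which each of the 92 rows was above background; a row without a bar was above background on none. CDH15 has a bar of the 3 IsO arrays alone, 19 rows reach all 6 arrays, and most alpha and gamma cluster rows have no bar.

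Of the 20 members tested, 1 was called at an adjusted p below 0.05, the type I cadherin CDH15, which was higher in IsO. Over all rows tested, 1.3% were called in either direction, 0.811% as higher and 0.488% as lower. With the array number as a block, 3 members were called, CDH15 as higher and CDH3 and PCDH17 as lower, where 5.76% of all rows were called, 3.27% as higher and 2.5% as lower. The IsO and control values did not overlap in 2 tested members that were higher in IsO (CDH15 and PCDHGA5) and in 4 that were lower (CDH3, CDH23, PCDH17 and PCDHB2). This separation occurred in 8.2% of all rows tested for higher values and in 7.24% for lower values. The difference was negative in 16 of the 20 members and in 7528 of all 14548 rows tested. The median was -0.19 for the members and -0.01 for all rows tested.

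**Figure D2:**
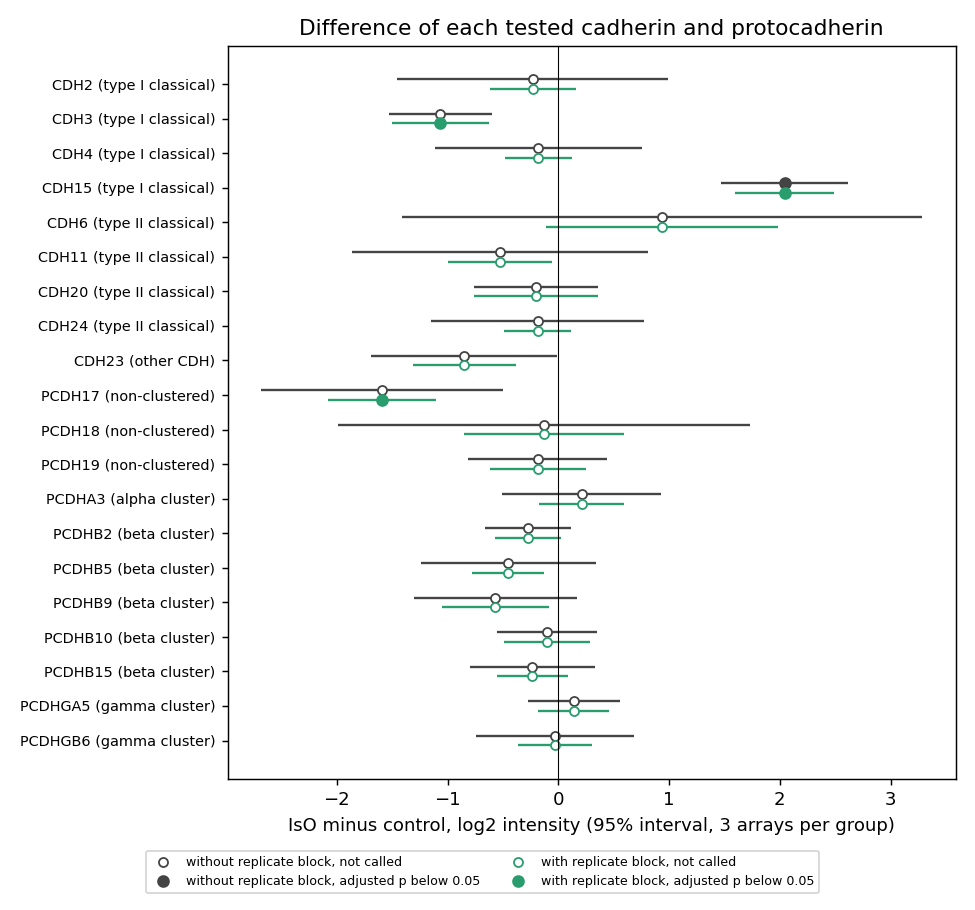
IsO minus control difference in log2 intensity of the 20 tested members, with 95% intervals, without (dark) and with (green) the array number as a block; filled points have an adjusted p below 0.05. CDH15 lies at 2.04 in both fits, and CDH3 at -1.07 and PCDH17 at -1.59 are filled with the block alone.

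The type I gene CDH15, M-cadherin, is best known from skeletal muscle and is also expressed in the cerebellum. Its values were 5.37, 5.49 and 5.48 on control arrays 1 to 3 and 7.17, 7.36 and 7.93 on IsO arrays 1 to 3. Every IsO array lay above every control array. No control array and every IsO array was above background, so the control level is only an upper bound. The deposited intensities were 136, 150 and 144 in control and 303, 257 and 342 in IsO. The difference was 2.04 ± 0.24 (SE, 3 arrays per group, 95% interval 1.47 to 2.62, adjusted p = 0.016). As the control arrays were not well above background, this is at least 3.20-fold, taken against the lowest signal of a detected row. Without background correction that bound was 1.78-fold, and with the background taken from all rows it was 1.06-fold. CDH15 reached the 3 arrays needed for testing through the IsO group alone, so among tested rows it had to differ. The call was lost without control array 2, control array 3 or IsO array 2 (adjusted p = 0.098, 0.112 and 0.106), where the difference was 2.06, 2.06 and 2.11. With the background from all rows the difference was 0.10 and was not called (adjusted p = 0.209). That setting includes rows of several probes, whose detection p-values are on another scale. Its inferred background means were 258 to 296 (SDs 759 to 903), while the array medians were only 144 to 157. Both the 0.10 and the 1.06-fold bound rest on those means. In bulk RNA, more cells of a type and more RNA per cell cannot be told apart.

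A list of 8 skeletal muscle genes, chosen after the CDH15 values had been seen, was read beside this result. MYOD1, MYOG, DES, CKM and MYH3 were above background on no array. The summed normalised intensity of the list was 1377 to 3975 in control and 573 to 630 in IsO. ACTA1 was the only gene of the list above background on all 6 arrays and accounted for this difference, as the other 7 genes summed to 258 to 262 in control and 248 to 259 in IsO.

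CDH3, P-cadherin, is a type I cadherin of placenta, epidermis and retinal pigment epithelium. Its values were 7.61, 7.88 and 7.92 in control and 6.92, 6.74 and 6.55 in IsO. Every IsO array was below every control array. The difference was -1.07 ± 0.19 (SE, 3 arrays per group, 95% interval -1.53 to -0.60), or 2.09-fold lower in IsO. It did not pass without the block (adjusted p = 0.066) and passed with it (adjusted p = 0.037). Of 5 tested surface ectoderm markers none was called, and 4 had negative differences. KRT19 differed by -0.90 (adjusted p = 0.226) and KRT8 by -0.58, both without overlap, EPCAM by -0.10 and KRT18 by -0.02, while TFAP2C differed by 0.88 (adjusted p = 0.803). The 6 genes of that list summed to 5538 to 7672 in control and 3583 to 5550 in IsO, and GATA3 was above background on no array. The part of such cells in the CDH3 difference was not tested.

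The other type I genes were not called. CDH1, E-cadherin, the cadherin of epithelia and of undifferentiated stem cells, was above background on control array 2 alone and was not tested. Its deposited intensities were 138, 195 and 137 in control and 158, 137 and 139 in IsO, so no IsO array and no other control array was above background. N-cadherin, CDH2, the main cadherin of neural progenitors, was above background on all 6 arrays. Its values were 14.31, 13.43 and 12.85 in control and 14.21, 12.89 and 12.79 in IsO. The array numbered 1 was the highest in both groups, and the groups overlapped. The difference was -0.23 ± 0.51 (SE, 3 arrays per group, adjusted p = 0.979), with a 95% interval of -1.45 to 0.99. With the block the interval was -0.62 to 0.16 and the adjusted p 0.406, so a fall of CDH2 by more than 0.62 lay outside it. CDH4, the R-cadherin of retina and brain, had 8.28, 9.17 and 9.35 in control and 8.13, 8.96 and 9.17 in IsO. Within each array number IsO was the lower by 0.15 to 0.21, and the difference of -0.18 ± 0.39 was not called (adjusted p = 0.979).

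**Figure D3:**
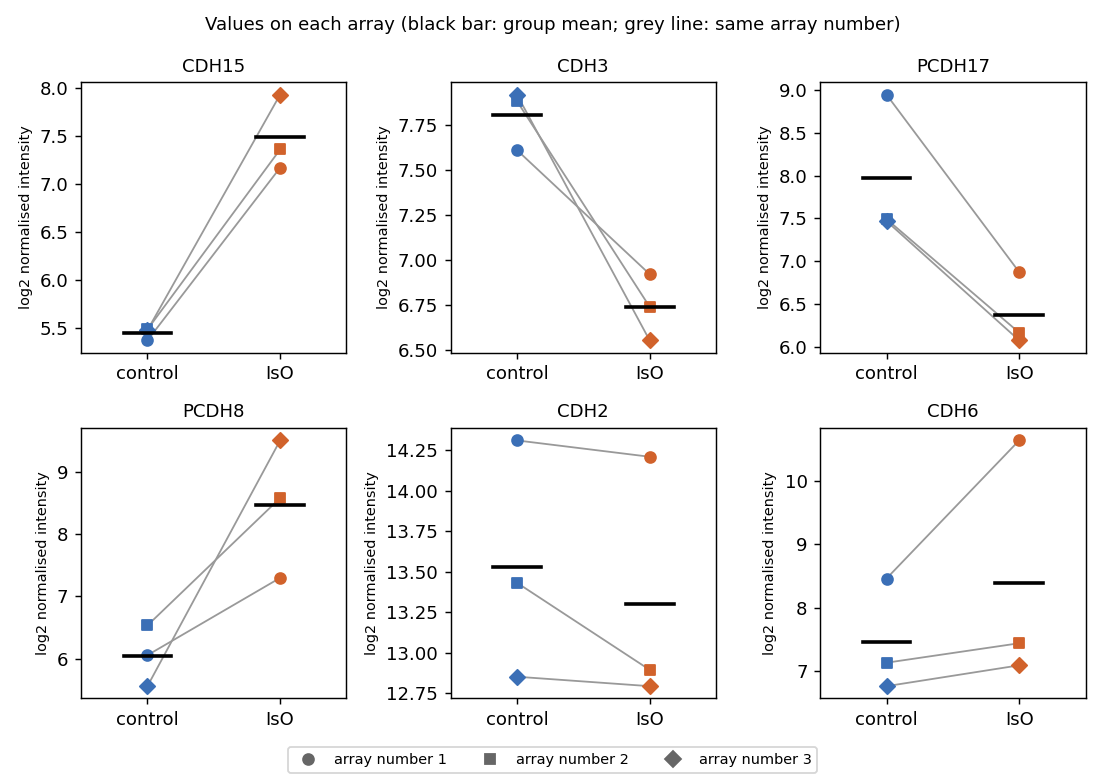
Log2 normalised intensity of 6 members on each array, control in blue and IsO in orange, with group means as black bars and grey lines joining arrays of the same number; each panel has its own axis, which does not start at 0. The groups are apart for CDH15, CDH3, PCDH17 and PCDH8 and overlap for CDH2 and CDH6, whose array number 1 is the highest in both groups.

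No type II cadherin was called with or without the block, and 4 of the 13 were tested. CDH6, K-cadherin, is expressed in kidney and, in the mouse embryo, in neural folds and neural crest. Its values were 8.46, 7.13 and 6.76 in control and 10.64, 7.44 and 7.09 in IsO. IsO was higher within each array number, by 2.18, 0.31 and 0.33, but IsO array 1 carried most of the difference and the groups overlapped. By detection p-value alone 3 of the 6 arrays passed, as this row combines several probes. In deposited intensities, IsO array 1 had 1934 where the other IsO arrays had 265 and 243. The difference was 0.94 ± 0.98 (SE, 3 arrays per group, 95% interval -1.41 to 3.29, adjusted p = 0.920). With the block the adjusted p was 0.244. CDH11, OB-cadherin, known from osteoblasts and mesenchyme, had 10.80, 10.15 and 9.43 in control and 10.69, 9.28 and 8.84 in IsO. IsO was lower within each array number, by 0.11 to 0.88. The difference of -0.53 ± 0.56 was not called (adjusted p = 0.921, with the block 0.171). CDH20 and CDH24 differed by -0.20 ± 0.23 and -0.19 ± 0.40 (adjusted p = 0.929 and 0.979). CDH9 and CDH10 were above background on 2 arrays each and CDH18 on 1, too few for a test.

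Of the 6 other CDH rows only CDH23 was tested. CDH23 forms the upper part of the tip links of inner ear hair cells. Its values were 7.41, 7.90 and 7.88 in control and 6.17, 7.08 and 7.40 in IsO. The groups did not overlap, with IsO lower, although IsO array 3 at 7.40 lay just under control array 1 at 7.41. The difference of -0.85 ± 0.35 was not called (adjusted p = 0.499, and 0.068 with the block).

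Among non-clustered protocadherins, PCDH17 had the largest tested difference. It is known in the mouse for the sorting of synapses in basal ganglia circuits and for bundled axon growth. Its values were 8.94, 7.49 and 7.47 in control and 6.88, 6.17 and 6.08 in IsO. Every IsO array was below every control array, and control array 1 stood above the rest. The deposited intensities were 561, 283 and 273 in control and 264, 177 and 183 in IsO. The difference was -1.59 ± 0.46 (SE, 3 arrays per group, 95% interval -2.69 to -0.50, adjusted p = 0.243). With the block it passed (adjusted p = 0.020), as it did on the arrays numbered 2 and 3 alone.

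PCDH18 and PCDH19 were tested too. PCDH18 binds the adaptor protein Dab1 in the mouse, and PCDH19, the gene of a female-limited epilepsy, acts together with N-cadherin in zebrafish. PCDH18 had 8.88, 7.0 and 7.35 in control and 9.09, 7.33 and 6.41 in IsO. The array numbered 1 was again the highest of each group, and the difference was -0.13 ± 0.78 (adjusted p = 0.994). PCDH19 differed by -0.18 ± 0.26 (adjusted p = 0.955).

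PCDH8, related to the frog paraxial protocadherin and in rat neurons a partner of N-cadherin at synapses, combined several probes. Its detection p-value was below 0.05 on IsO array 3 alone, so it was not tested. Its values were 6.06, 6.54 and 5.56 in control and 7.30, 8.58 and 9.51 in IsO. Every IsO array was above every control array, and the IsO arrays spread widely. The deposited intensities were 168, 201 and 148 in control and 321, 453 and 841 in IsO. When rows of several probes were also kept by their signal, the difference was 2.41 ± 0.57 (SE, 3 arrays per group) and was not called (adjusted p = 0.143). It was not called with the block in addition (adjusted p = 0.0655). PCDH7, kept by its signal in the same way, differed by -0.49 (adjusted p = 0.593). Of the others, PCDH9 and PCDH15 were above background on 1 array each, PCDH10 and PCDH24 on 2 each, and PCDH1, PCDH12, PCDH20 and PCDH21 on none.

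No clustered protocadherin was called in either fit, and 8 of the 55 were tested. The median difference of the 8 was -0.17. Alpha and gamma transcripts each end in shared constant exons, and beta genes are close copies of each other. Probe sequences were not used here, so it is uncertain which cluster member a row reports. PCDHB17 and PCDHB18 are transcribed pseudogenes.

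The beta cluster had the most rows above background, 6 of 18 on all 6 arrays, against 1 of 15 for alpha and 1 of 22 for gamma. Of the 6, PCDHB17 passed by detection p-value on 1 array and PCDHB9 on 3. Their other arrays counted by signal alone, as these rows combine several probes. Promoters of the cluster carry a shared element, and RefSeq promoter windows (GRCh38.p14, 250 bases before to 50 after each gene's start) were searched on both strands for its letters, a search chosen after these sequences had been seen. GGTGGCGCT was found in 13 of the 14 beta members with a promoter entry, the exception being PCDHB1. It was found in 143 of all 27305 promoters (0.524%). Stretches around it are shown, 5′ to 3′ on the plus strand with GGTGGCGCT in capitals, for the 5 beta genes that were tested and for PCDHB4, PCDHB7 and PCDHB8, which were above background on no array.
PCDHB2 (chr5:141094539-141094579): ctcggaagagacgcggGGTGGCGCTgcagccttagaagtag
PCDHB5 (chr5:141135174-141135214): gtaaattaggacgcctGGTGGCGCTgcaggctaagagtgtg
PCDHB9 (chr5:141187069-141187109): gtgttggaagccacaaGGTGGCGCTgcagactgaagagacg
PCDHB10 (chr5:141192294-141192334): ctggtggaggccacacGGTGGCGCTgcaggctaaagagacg
PCDHB15 (chr5:141245309-141245349): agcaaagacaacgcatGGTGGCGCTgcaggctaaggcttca
PCDHB4 (chr5:141121718-141121758): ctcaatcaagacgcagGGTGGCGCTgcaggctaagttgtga
PCDHB7 (chr5:141172561-141172601): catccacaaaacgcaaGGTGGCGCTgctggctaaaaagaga
PCDHB8 (chr5:141177772-141177812): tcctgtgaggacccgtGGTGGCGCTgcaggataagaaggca
Among beta genes with a promoter entry, 6 were above background on at least 3 arrays and 8 on none. These 6 include PCDHB3 but not PCDHB17, which had no promoter entry. The letters were present in 6 of the 6 and in 7 of the 8. Presence of the letters thus did not separate these sets. In the alpha cluster GATGTCGCT was found in 9 of 13 promoters, against 0.103% of all promoters. In the gamma cluster GNCGCTGT, which shares CGCT with both other motifs, was found in 17 of 20, against 4.42%.

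All 5 tested beta genes had negative differences, from -0.57 to -0.10 with a median of -0.27, and none was called. PCDHB9 had 6.99, 7.78 and 7.57 in control and 6.52, 6.77 and 7.35 in IsO. IsO was lower within each array number, but the groups overlapped, and the difference was -0.57 ± 0.31 (adjusted p = 0.697, and 0.157 with the block). PCDHB5 had 12.15, 12.87 and 12.84 in control and 11.60, 12.36 and 12.55 in IsO. Here too IsO was lower within each number, and the difference of -0.45 ± 0.33 was not called (adjusted p = 0.837, with the block 0.117). PCDHB2 had 11.36, 11.43 and 11.46 in control and 11.07, 11.15 and 11.22 in IsO. Its groups did not overlap, and the difference of -0.27 ± 0.16 was not called (adjusted p = 0.737). PCDHB15 and PCDHB10 differed by -0.23 ± 0.24 and -0.10 ± 0.19 (adjusted p = 0.915 and 0.975). Kept by signal, PCDHB17 differed by -0.42 and PCDHB3 by -0.13 (adjusted p = 0.786 and 0.993).

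The highest differences among tested protocadherins were small. PCDHA3 had 5.34, 5.94 and 5.78 in control and 5.36, 6.04 and 6.28 in IsO, a difference of 0.21 ± 0.30 (SE, 3 arrays per group, adjusted p = 0.955). PCDHGA5 had 5.44, 5.46 and 5.38 in control and 5.48, 5.75 and 5.47 in IsO. Its groups did not overlap, with IsO higher, but IsO array 3 at 5.47 was next to control array 2 at 5.46. The difference was 0.14 ± 0.17 (adjusted p = 0.937). PCDHGB6 differed by -0.03 ± 0.30, with 6.41, 7.24 and 7.18 in control and 6.54, 7.05 and 7.15 in IsO (adjusted p = 0.995). Outside these, PCDHA4 and PCDHA5 were above background on 1 array each and PCDHAC2 and PCDHGA10 on 2 each.

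Set side by side, 8 of 18 classical cadherins and 11 of 68 protocadherins were tested. Of the classical cadherins 1 was called as higher and none as lower, and the block added 1 lower. Of the protocadherins none was called by limma, and the block gave 1 lower. An unadjusted p below 0.05 was found in 2 of the 8 classical cadherins, 1 of the 11 protocadherins and 1444 of all 14548 rows tested. The medians of the tested genes were -0.19 and -0.18, both below the -0.01 of all rows tested. Among arrays of the same group, the median level of these genes varied with an SD of 0.16 for classical cadherins and 0.073 for protocadherins. This is the spread of a level on single arrays and not that of a median difference. Whether either median departs from that of all rows was not tested. The tested classical cadherins ranged from -1.07 to 2.04 and the tested protocadherins from -1.59 to 0.21. The positive differences among classical cadherins were those of CDH15, which was tested through the IsO arrays alone, and CDH6. CDH6 differed by -0.19 without IsO array 1, where control array 1 was kept, and by 0.32 on arrays numbered 2 and 3 alone.

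Several members varied with the array number. The array numbered 1 minus the mean of the other arrays, averaged over both groups, was 2.44 for CDH6, 1.96 for PCDH18, 1.32 for CDH11, 1.27 for CDH2 and 1.11 for PCDH17. For CDH6 this was 1.51 in control and 3.37 in IsO. These 5 genes were the highest on array number 1 in both groups, as were 25% of all rows tested. In the other direction, 10 of the 20 tested members, or 50%, were the lowest on array number 1 in both groups, as were 45.1% of all rows tested. Of these, CDH24 differed by -0.98 in control and -1.01 in IsO, and CDH4 by -0.96 on average. Neural crest markers moved with the same arrays: 5 of the 6 listed genes, SOX10, FOXD3, TFAP2A, TFAP2B and SNAI2, were highest on number 1 in both groups. For FOXD3 the number 1 array exceeded the mean of the others by 0.20 in control and 2.43 in IsO. The summed normalised intensity of the 6 was 1984 on control array 1 and 838 and 548 on the other control arrays, and it was 9365 on IsO array 1 and 1967 and 2156 on the other IsO arrays. Each of the 6 was above background on at least 1 array. The pattern was not particular to neural crest markers. Of 9 neuron markers, 7 were also highest on number 1 in both groups, against 2 of 6 mesenchyme and 1 of 6 neural progenitor markers. The part of these cell types in the values of CDH6, CDH11, CDH2, PCDH17 and PCDH18 was not tested.

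**Figure D4:**
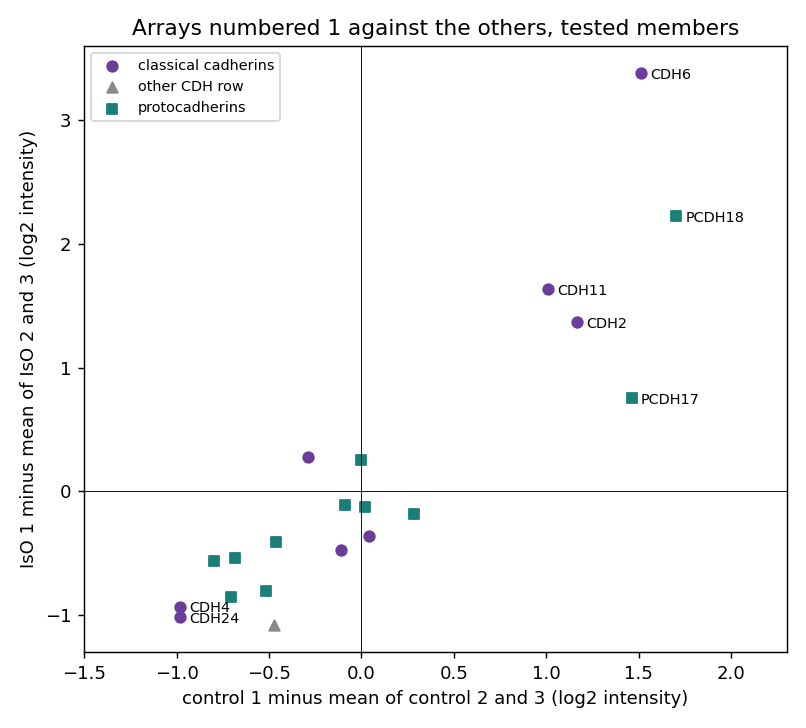
Array number 1 minus the mean of arrays 2 and 3, in log2 intensity, in control (x axis) and in IsO (y axis) for the 20 tested members. CDH6, PCDH18, CDH11, CDH2 and PCDH17 are higher on number 1 in both groups, and CDH4 and CDH24 are lower in both.

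The proteins that cadherins work with were measured on the same arrays. Of 14 catenins and other adherens junction genes 12 were tested and none was called. Beta-catenin, CTNNB1, differed by -0.01 ± 0.68 (adjusted p = 0.999), and p120-catenin, CTNND1, by 0.02 ± 0.19 (adjusted p = 0.995). With the block, alpha-catenin, CTNNA1, was higher by 0.75 (adjusted p = 0.039, without the block 0.874). Of 6 repressors of E-cadherin transcription, 3 were tested. TWIST1 was higher in IsO by 1.97 ± 0.31 (SE, 3 arrays per group, adjusted p = 0.045), with 7.21, 6.19 and 6.30 in control and 8.46, 8.34 and 8.79 in IsO. SNAI2 differed by 1.82 ± 0.66 (adjusted p = 0.410), and passed with the block (adjusted p = 0.017). SNAI1 and ZEB1 were above background on no array, and CDH1 itself was too dim for a test.

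Of 25 other genes of the cadherin superfamily, 9 were tested and 1 was called. CLSTN2, a calsyntenin of synaptic membranes, had 5.73, 5.76 and 5.74 in control and 7.81, 7.26 and 7.91 in IsO. No control array was above background, as with CDH15, so it too was tested through the IsO group alone. The difference was 1.91 ± 0.22 (adjusted p = 0.016), at least 3.61-fold with the background from rows of 1 probe. Unlike the bound of CDH15, this bound and that of EN1 were not computed with other backgrounds. The atypical cadherins FAT1 and CELSR2 differed by -0.48 ± 0.26 and -0.24 ± 0.33 (adjusted p = 0.705 and 0.945). Of the proteases that cut cadherins, 6 of 8 were tested and none was called in either fit. Of 14 effectors and regulators of protocadherins, 12 were tested and none was called, among them CTCF at 0.16 ± 0.44 (adjusted p = 0.986). With the block PTK2, the focal adhesion kinase that protocadherins inhibit, passed as higher (adjusted p = 0.050, just under the threshold).

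The remaining marker lists show what else differed between the groups. Of 5 tested neural progenitor markers 1 was called lower in IsO, SOX2 at -1.43, and 4 were called lower with the block. All 5 had negative differences. The 6 genes of that list summed to 79350 to 107900 in control and 29820 to 56080 in IsO. Of 7 tested neuron markers 2 were higher, and the 9 genes of that list summed to 13990 to 17370 in control and 22970 to 26640 in IsO. Of 4 tested neural crest markers 1 was higher without the block and 4 with it. None of 3 tested mesenchyme markers was called, and with the block COL3A1 was higher. Of 6 endothelial markers PECAM1 and KDR were above background on no array, as was CDH5. The 3 tested, VWF, TEK and CLDN5, differed by -1.10, 0.78 and 1.66, none was called without the block (adjusted p = 0.159, 0.837 and 0.052), and CLDN5 was higher with it (adjusted p = 0.016). None of 3 tested pluripotency markers was called in either fit. Of that list LIN28 and DPPA4 were above background on all 6 arrays and NANOG on none, and its 6 genes summed to 33210 to 37910 in control and 35480 to 39150 in IsO. The part of these cell types in the differences of CDH15, CDH3 and PCDH17 was not tested.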

How the data were processed

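RNA labelled with biotin was measured on Illumina bead arrays, and the submitters' processing notes name GenomeStudio 2011.1. Per the file headers, the deposited table holds an intensity and a detection p-value for each array. It has 1 row per gene name. Judged by their values, the intensities are linear and had no background subtracted. By the spacing of the deposited p-values, 27312 rows hold 1 probe and 7380 combine several. The authors' processed log2 table has 34685 rows with a column median of 7.23, lies within 0.00754 of log2 intensities after quantile normalisation, and served as an alternative.

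Intensities were corrected with limma 3.58.1 in R 4.3.3 by normexp, with the background inferred from the detection p-values of rows of 1 probe (means 122 to 132, SDs 22.0 to 25.3), an offset of 16, quantile normalisation and log2. Quantile normalisation hides a shift shared by most genes, and the offset compresses differences of dim rows. The number of arrays limits the precision. Rows detected (p-value below 0.05) on 3 or more arrays were tested with lmFit and eBayes and no covariate, with Benjamini-Hochberg adjustment over 14548 rows and a threshold of 0.05. The procedure was tested on simulated data with independent noise on each array. Shared deviations of same-numbered arrays were not simulated, and the planted changes were larger than the differences of most tested members. A row of several probes, whose p-values are on another scale, also counted as above background if it was as bright as the dimmest detected row of 1 probe on that array.

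Same-numbered control and IsO arrays had deviations from their group means that correlated at 0.87, 0.40 and 0.65, so the numbers from the labels were taken as pairs, although control array 2 correlated more with IsO array 3 (0.70) than with IsO array 2.

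Members and lists were chosen with earlier results of these data known. Genes given with every value were CDH1, CDH2, CDH6, the called members, and the 3 highest and 3 lowest tested protocadherins. CDH4, CDH11, CDH23, PCDH8, PCDH18 and PCDHB2 were chosen after their values were seen. Of the 92 member names 87 were current symbols in the RefSeq table of GRCh38.p14 and 5 matched as older symbols. The genome build of the array annotation is not given in the sources used here. Python 3.11.15, pandas 2.3.3 and matplotlib 3.10.9 were used for promoters and plots.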

Additional observations from a re-analysis of the deposited data

How the results depend on the processing

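Beside the values reported, 18 other settings were run, 17 planned and 1 chosen after seeing the data (rows of several probes kept by signal together with the block). The count of all rows called, 189, became 101 with the background taken from all rows, 838 with the replicate block, 357 on arrays numbered 2 and 3 alone, 950 with the added setting, and 40 to 160 without each array in turn (40 without IsO array 2, 42 without control array 3, 46 without control array 2, 57 without IsO array 3). The members called, 1, became 0, 3, 3 and 3 in the same order and 0 to 1 without each array. The classical cadherins called, 1, became 0, 2, 2 and 2, and 0 to 1 without each array (0 without control array 2, control array 3 or IsO array 2). The protocadherins called, 0, became 1 with the replicate block, 1 on arrays numbered 2 and 3 alone and 1 with the added setting. CDH15 was called in 14 of the 18 settings, with adjusted p from 0.00737 to 0.209 and a difference from 0.10 to 2.20. The call was lost with the background from all rows and without control array 2, control array 3 or IsO array 2. With all rows the inferred background means (258 to 296) exceeded the array medians (144 to 157). CDH3 and PCDH17 were called in 3 settings each: the replicate block, arrays numbered 2 and 3 alone, and the added setting. The block changed no other member's call. The median of the tested classical cadherins, -0.19, became -0.027 with the background from all rows, -0.12 without background correction and in the authors' processed table, and -0.26 to -0.076 without each array in turn (-0.076 without control array 2). That of the protocadherins, -0.18, became -0.11 without background correction, -0.013 with the background from all rows, -0.11 in the authors' processed table, -0.10 with median scaling, -0.028 without a filter on dim rows, and -0.30 to -0.077 without each array in turn (-0.077 without control array 2, -0.30 without control array 1). No called value changed sign; the uncalled differences of CDH2, CDH4, CDH6, CDH24, PCDH18 and PCDHGB6 changed sign in 1 to 4 settings each. With 3 arrays a group and most members at background, a difference in those members was not detectable here.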
